A study of Mus musculus with 6 samples.

Results

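The genes described here encode 3 receptors of the EGF receptor (ErbB) family and 7 of their ligands, as measured in primary mouse cardiac fibroblasts, the connective tissue cells of the heart. The 10 genes were chosen by name: the receptors Egfr, Erbb2 and Erbb3, and the ligands Ereg, Areg, Hbegf, Tgfa, Btc, Epgn and Nrg1. All 10 were found among the 18059 genes of each deposited table, and 8 of them had enough counts to be tested. Messenger RNA was sequenced in 6 libraries, 3 from cells given saline (control) and 3 from cells given PDGF-DD, which is platelet-derived growth factor D as its receptor-binding dimer, at a labelled 20 µM for 12 hours. That dose is very high for a growth factor, and its unit could not be checked. Cells came from C57BL/6 hearts at 1 to 2 weeks of age and were grown in medium with 15% serum. The growth protocol says that all cells were from global PDGF-D knockout mice. The genotype field instead reads "control" for the saline libraries and PDGF-D -/- for the PDGF-DD libraries, in which case genotype and treatment cannot be told apart. The labels do not tell if a group of 3 libraries used different cultures or animals, so the p-values speak for the variation among these 6 libraries, and that variation may be technical.

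EGF family ligands are made as membrane-bound precursors, and proteases of the ADAM family release the part that binds the receptor. EGFR binds amphiregulin, TGF-alpha, epigen, HB-EGF, betacellulin and epiregulin. Of these, HB-EGF, betacellulin and epiregulin also bind ERBB4, and neuregulin 1 binds ERBB3 and ERBB4. ERBB2 has no known ligand of its own and acts as a partner in dimers, while the kinase domain of ERBB3 is nearly inactive, so that ERBB3 signals with a partner. In the heart the pathway is best known for neuregulin 1 from endothelial cells acting on ERBB2 and ERBB4 of cardiomyocytes. Growth factors of other families often induce EGFR ligand genes in mesenchymal cells.

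Depth was nearly equal, between 21221114 and 21371829 estimated read counts per library. Control replicate 1 stood apart: a chi-square comparison of gene counts, divided by its degrees of freedom, gave 5.11 and 5.70 for its pairs with the other controls. The remaining pairs within a group gave 1.90 to 2.74. Reads of Pdgfd, the gene named in the genotype, were present in all 6 libraries, with 91 to 118 counts in control and 69 to 82 with PDGF-DD. Counts over a whole gene do not show whether the edited part was lost. All 12 fibroblast markers examined had counts in every library, with Col1a1 highest at a mean of 8071 TPM in control and 6896 TPM with PDGF-DD. TPM, the deposited transcript abundance scaled to a common sum, is a level per transcript length and can be compared between genes. CPM, the count scaled to library size with TMM factors, is used to compare 1 gene between groups.

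Levels per length set the members into 4 abundant genes and 6 scarce ones. Hbegf and Ereg were the highest in both groups, followed by Egfr and Erbb2. In control the means were 33.1 ± 3.22 TPM for Hbegf, 29.97 ± 0.55 TPM for Ereg, 18.1 ± 1.51 TPM for Egfr and 16.4 ± 0.92 TPM for Erbb2 (SD, n = 3 each). Within control the libraries of Egfr and Erbb2 overlapped, while those of the other neighbours in the order did not. Nrg1 and Tgfa came next, at 3.6 ± 0.53 and 2.57 ± 0.22 TPM, and Erbb3 stood at 1.00 ± 0.14 TPM. Areg (0.71 ± 0.05 TPM), Btc (0.53 ± 0.06 TPM) and Epgn (0.07 ± 0.01 TPM) were lowest. With PDGF-DD the order was the same except that Btc and Areg changed places, and there the values of Hbegf overlapped those of Ereg, those of Erbb3 overlapped those of Btc, and those of Btc overlapped those of Areg. All means, with the 6 libraries behind them, are shown in the plot of TPM by library.

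**Figure D1:**
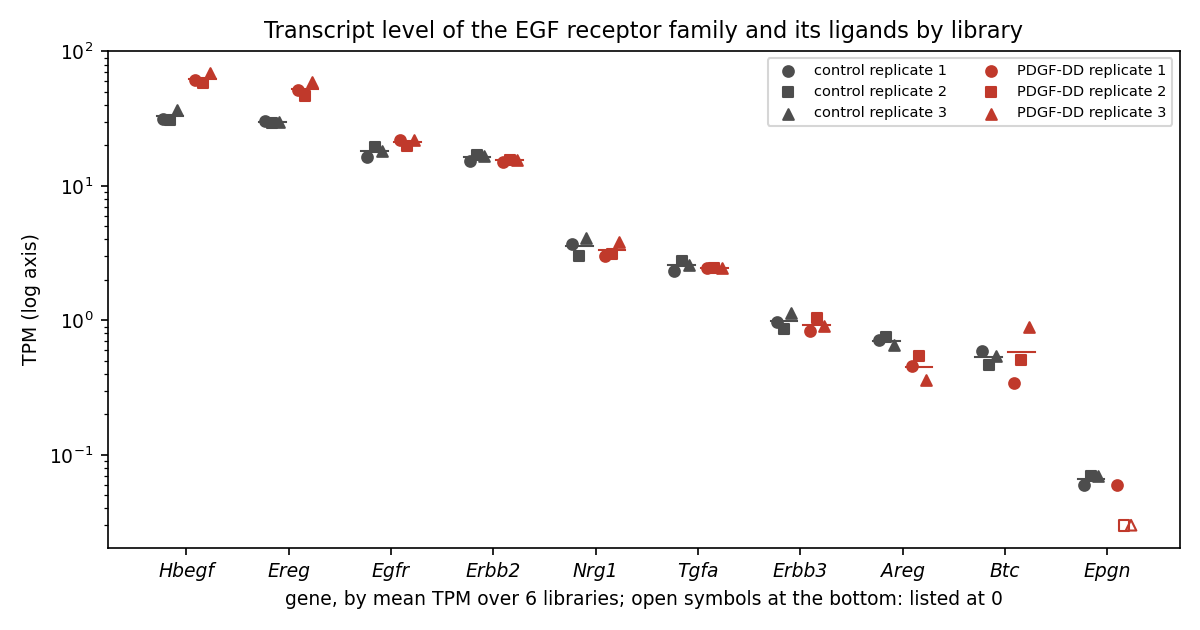
TPM of each member on a log axis, 1 symbol per library (grey control, red PDGF-DD; circle, square and triangle for replicates 1, 2 and 3; bars are group means, drawn where they lie above the lowest mark). The PDGF-DD values of Hbegf, Ereg and Egfr lie above all control values, and Epgn is listed at 0 in 2 PDGF-DD libraries.

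Of the 8 tested members, 3 rose with PDGF-DD and 0 fell (an edgeR quasi-likelihood p under 0.05 after Benjamini-Hochberg adjustment over all 13270 genes tested). That is 37.5% higher and 0% lower, beside 19.1% called higher and 17.4% called lower over all tested genes. The 3 that rose were Hbegf, Ereg and Egfr. Without control replicate 1, the library that stood apart, their log2 fold changes were 0.92, 0.86 and 0.20, and the same 3 genes were called (edgeR adjusted p = 4.07e-09, 1.16e-05 and 0.00542). None of the other 5 was lower at an unadjusted p under 0.05, and DESeq2 and limma also called 3 higher and 0 lower. The median log2 fold change of the 8 was 0.05, beside -0.01 over all tested genes, so the typical member lay close to the typical gene.

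Hbegf (Entrez gene 15200) encodes heparin-binding EGF-like growth factor, a ligand held near cells by heparan sulfate. Its level was 31.2, 31.2 and 36.8 TPM in the control libraries and 61.5, 58.2 and 68.8 TPM in the PDGF-DD libraries. Every PDGF-DD library lay above every control library. The rise was from 33.7 ± 2.91 to 64.4 ± 5.08 CPM (SD, n = 3 each), 1.91-fold with a 95% interval of 1.74 to 2.10 (log2 fold change 0.94, SE 0.06, edgeR adjusted p = 1.06e-09). Among all tested genes, 0.625% had a larger log2 fold change. The exact two-sided permutation test over the 6 libraries gave p = 0.1 for Hbegf, the smallest value that 3 against 3 libraries allow.

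Ereg (Entrez gene 13874) encodes epiregulin, which binds EGFR and ERBB4. Control libraries held 30.5, 29.4 and 30.1 TPM, and PDGF-DD libraries 51.6, 46.8 and 59.3 TPM. The groups did not overlap, and the spread was wider with PDGF-DD than in control. From 53.7 ± 2.41 to 94.7 ± 10.6 CPM (SD, n = 3 each) Ereg rose 1.76-fold, with a 95% interval of 1.58 to 1.97 (log2 fold change 0.82, SE 0.07, edgeR adjusted p = 2.33e-06). A larger log2 fold change was found for 0.874% of tested genes. The intervals of Hbegf and Ereg overlap, and the difference between their changes was not tested. For both ligands PDGF-DD replicate 3 was the highest library and PDGF-DD replicate 2 the lowest of the treated group.

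Egfr (Entrez gene 13649), the receptor that both ligands bind, rose less. Its level was 16.4, 19.4 and 18.3 TPM in control and 21.9, 19.8 and 22.1 TPM with PDGF-DD. The groups did not overlap, but control replicate 2 and PDGF-DD replicate 2 lay close together. The rise was from 40.2 ± 1.76 to 47.3 ± 2.06 CPM (SD, n = 3 each), 1.18-fold with a 95% interval of 1.09 to 1.27 (log2 fold change 0.23, SE 0.05, edgeR adjusted p = 0.00102). A larger log2 fold change was found for 14.4% of tested genes, so the size of this rise was common in these data. Within the PDGF-DD group replicate 2 was lowest in TPM and in CPM, while replicate 3 was highest in TPM and replicate 1 in CPM.

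Erbb2 and Erbb3 did not pass the test. Erbb2 (Entrez gene 13866) held 15.3, 17.0 and 16.8 TPM in control and 15.1, 15.7 and 15.6 TPM with PDGF-DD, and the groups overlapped. Its log2 fold change was -0.07 (95% interval -0.18 to 0.05, edgeR adjusted p = 0.361). Erbb3 (Entrez gene 13867) was near 1 TPM, at 0.98, 0.87 and 1.14 TPM in control and 0.83, 1.04 and 0.91 TPM with PDGF-DD. With 46 to 62 counts per library its interval was wide, from -0.45 to 0.26 on the log2 scale around -0.09 (edgeR adjusted p = 0.708). Schwann cells, the glia of peripheral nerves, carry much ERBB3, and 9 of 10 Schwann cell markers examined had counts in every library, Ngfr being the highest at 9.86 TPM in control and 8.51 TPM with PDGF-DD. Their summed level was 23.5 to 27.3 TPM in control and 20.7 to 21.3 TPM with PDGF-DD, and their part in the Erbb3 level was not tested. Fewer cells of a type and less RNA per cell cannot be told apart in such bulk libraries.

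**Figure D2:**
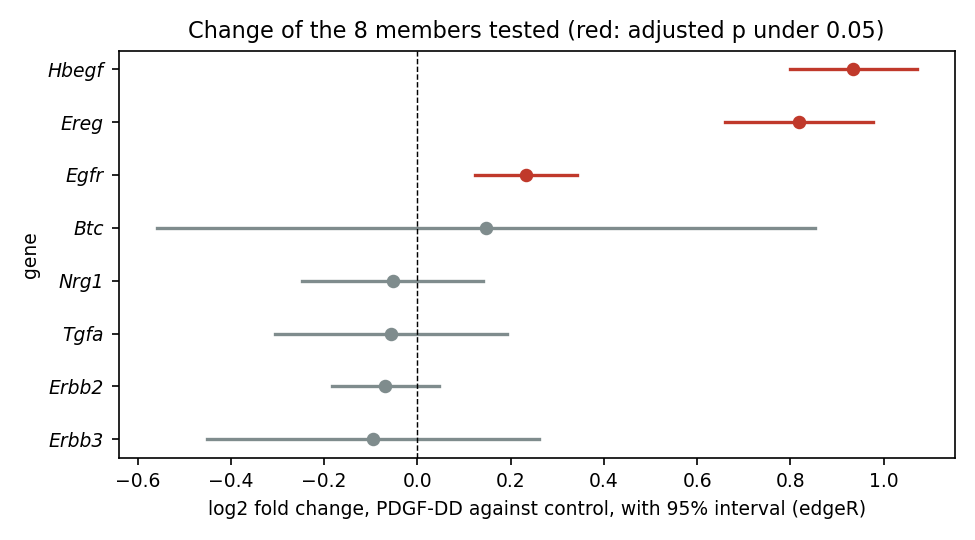
Log2 fold change of the 8 tested members, PDGF-DD against control (points), with 95% intervals from edgeR (lines). The intervals of Hbegf, Ereg and Egfr lie above 0, and the widest interval is that of Btc, from -0.56 to 0.85.

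The remaining ligands stayed low. Nrg1 (Entrez gene 211323), the neuregulin gene, had 167, 177 and 182 counts in control and 177, 167 and 168 with PDGF-DD, and its log2 fold change of -0.05 did not pass (95% interval -0.25 to 0.14, edgeR adjusted p = 0.701). Tgfa (Entrez gene 21802), which encodes TGF-alpha, held 2.34, 2.78 and 2.59 TPM in control and 2.46, 2.45 and 2.44 TPM with PDGF-DD (log2 fold change -0.06, 95% interval -0.30 to 0.19, edgeR adjusted p = 0.754). For both genes the groups overlapped. Btc (Entrez gene 12223), which encodes betacellulin, had 9 to 24 counts per library, and its log2 fold change of 0.15 turned to -0.28 without PDGF-DD replicate 3, the library with the highest value (edgeR adjusted p = 0.772 with all libraries and 0.624 without it).

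Areg (Entrez gene 11839), which encodes amphiregulin, and Epgn (Entrez gene 71920), which encodes epigen, were too low to test. Areg had 8, 8 and 7 counts in control and 5, 6 and 4 with PDGF-DD, so that all treated libraries lay below all controls (exact two-sided permutation p = 0.1 on TPM). Without the filter on low counts its log2 fold change was -0.61 (SE 0.55, edgeR adjusted p = 0.463), so no change of Areg was detectable at this depth. Epgn had 1 count in each control library and in PDGF-DD replicate 1 and 0 in the other two.

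Of the family members not among the 10, Erbb4 had 5 to 15 counts per library, Nrg2 between 1 and 7 after rounding, and Nrg3 0 after rounding in all 6. Egf, the founding ligand, stood at 0.49 ± 0.12 TPM in control and 0.64 ± 0.14 TPM with PDGF-DD (SD, n = 3 each; log2 fold change 0.35, edgeR adjusted p = 0.4), and Nrg4 at 0.71 ± 0.05 and 0.80 ± 0.17 TPM (log2 fold change 0.29, edgeR adjusted p = 0.538). Neither passed the test.

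Epgn, Ereg, Areg and Btc are neighbours, in that order, among the protein-coding genes of mouse chromosome 5 (RefSeq annotation of GRCm38.p6). Only Ereg among these 4 was both abundant and higher with PDGF-DD. The genes that flank the cluster were Mthfd2l (10.8 and 11.2 CPM, edgeR adjusted p = 0.65), which did not pass, and Parm1, which fell from 39.9 to 26.03 CPM, or by 0.62 on the log2 scale (edgeR adjusted p = 5.44e-09). Both flanking genes were named for their position.

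Promoter sequences are shown for 3 members to set a receptor that rose (Egfr) beside one that did not pass (Erbb2), and to show the scarce neighbour of Ereg (Areg). They are the 250 bases before the RefSeq start of each gene in GRCm38.p6, a later build than the mm9 named in the submitters' processing notes. Windows were used for 6 of the 10 members, namely Egfr, Erbb2, Areg, Btc, Epgn and Tgfa, and none for Hbegf, Ereg, Erbb3 and Nrg1. The windows shown are chr11:16751953-16752202, plus strand for Egfr, chr11:98412234-98412483, plus strand for Erbb2 and chr5:91139349-91139598, plus strand for Areg. Capitals mark matches, on either strand, to the AP-1 motif TGANTCA, the cAMP response element TGACGTCA, the GC box GGGCGG, the TATA box TATAAA or the ETS motif CCGGAAG.

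Egfr: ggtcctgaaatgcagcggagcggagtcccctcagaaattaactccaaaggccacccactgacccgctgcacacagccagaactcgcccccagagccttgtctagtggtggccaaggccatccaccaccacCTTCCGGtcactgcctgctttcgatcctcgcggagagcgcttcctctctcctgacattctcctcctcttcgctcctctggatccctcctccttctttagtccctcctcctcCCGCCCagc
Erbb2: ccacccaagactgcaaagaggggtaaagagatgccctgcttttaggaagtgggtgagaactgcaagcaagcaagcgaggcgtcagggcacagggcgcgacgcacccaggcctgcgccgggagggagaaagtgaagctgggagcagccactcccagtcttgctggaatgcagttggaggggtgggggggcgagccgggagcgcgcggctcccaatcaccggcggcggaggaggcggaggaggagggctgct
Areg: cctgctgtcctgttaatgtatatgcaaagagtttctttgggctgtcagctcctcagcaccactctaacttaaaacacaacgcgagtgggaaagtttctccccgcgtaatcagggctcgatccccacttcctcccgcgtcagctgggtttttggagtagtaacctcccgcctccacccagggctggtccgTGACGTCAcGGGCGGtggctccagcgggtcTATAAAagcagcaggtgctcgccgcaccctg

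The Egfr window held 1 ETS match and 1 GC box, and the Erbb2 window held none of the 5 motifs. The Areg window held a cAMP response element 61 bases before the start, followed by a GC box and, 31 bases before the start, a TATA box. Among 32851 RefSeq windows of the same length, 1.55% held the cAMP response element, 6.91% the ETS motif, 32.7% the GC box, 12.4% the TATA box and 6.75% the AP-1 motif. The AP-1 letters occurred in none of the 6 windows, which do not include those of Hbegf and Ereg, the ligands that rose. A match is a description of the letters and not a site in use.

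The list of genes of receptor restraint, endocytosis and turnover held 32 genes, of which 31 were tested. Of these, 8 rose and 3 fell (25.8% and 9.68%, beside 19.1% and 17.4% over all genes), with a median log2 fold change of 0.06. Whether each of them lowers or sustains receptor signalling in these cells was not tested. Errfi1, a feedback inhibitor that binds the EGFR kinase domain, rose from 27.7 ± 1.37 to 72.5 ± 6.98 CPM (SD, n = 3 each; log2 fold change 1.39, SE 0.06, edgeR adjusted p = 1.67e-12). Lrig1, a membrane protein that promotes degradation of ErbB receptors, rose from 34.0 ± 0.78 to 57.1 ± 0.60 CPM (edgeR adjusted p = 8.44e-12). Ubash3b, a phosphatase that binds the ubiquitin ligase CBL, rose 2.51-fold, and Cblb, a ubiquitin ligase of the CBL family, rose 1.48-fold. The most abundant member, the ubiquitin ligase gene Nedd4, fell slightly, by 0.15 on the log2 scale, and Rab7, of late endosomes, did not pass at 450 and 469 CPM (edgeR adjusted p = 0.206). The other 2 that fell, Eps15 and Dusp3, were named after their values were seen, and the number that fell was 1 without PDGF-DD replicate 3.

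Genes of ligand release showed 2 rises and 5 falls among 18 tested (11.1% and 27.8%, beside 19.1% and 17.4% over all genes), with a median log2 fold change of -0.04. The metalloproteinase genes Adam12 and Adam19 rose, from 259 ± 11.4 to 351 ± 15.8 CPM and from 349 ± 12.0 to 424 ± 11.5 CPM (SD, n = 3 each; edgeR adjusted p = 5.93e-09 and 2.6e-06). Timp3, an inhibitor of ADAM17 and other metalloproteinases and the most abundant gene of the list, fell from 988 ± 60.5 to 743 ± 29.6 CPM (-0.41 on the log2 scale, edgeR adjusted p = 6.06e-08). Nkd2, which escorts TGF-alpha to the cell surface, fell by 0.32 on the log2 scale. Adam9, the second most abundant, did not pass, at 615 and 609 CPM in the 2 groups (edgeR adjusted p = 0.782). Genes named after their values were seen are Adam10, Bace1 and Bace2, which fell by 0.19, 0.22 and 0.39 on the log2 scale, and Adam17, a main sheddase of EGFR ligands, at 61.5 and 59.2 CPM (edgeR adjusted p = 0.363).

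In the signal relay downstream of the receptors, genes were called higher and lower about as often as genes in general. Of 36 tested adaptor, RAS-ERK, PI3K and STAT genes, 6 rose and 7 fell (16.7% and 19.4%, beside 19.1% and 17.4% over all genes), with a median log2 fold change of -0.03 over members that moved both ways. Rasa1, a GTPase-activating protein that switches RAS off, rose most, from 113 ± 6.61 to 176 ± 5.37 CPM (SD, n = 3 each; log2 fold change 0.63, edgeR adjusted p = 2.25e-11). Gab1, a docking protein of EGFR signalling, fell from 48.1 ± 1.6 to 34.2 ± 0.99 CPM (-0.49 on the log2 scale, edgeR adjusted p = 3.55e-08), the kinase gene Braf fell by 0.37 on the log2 scale, and Mapk3, which encodes ERK1, fell by 0.16. The most abundant genes, Akt1 and Ptpn11, did not pass (edgeR adjusted p = 0.865 and 0.13). Without PDGF-DD replicate 3 the counts were 3 higher and 4 lower, and limma on log2(TPM + 0.1) called 2 higher.

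Genes that EGF and related growth factors induce mostly rose. Of 35 tested, 25 were higher and 1 lower (71.4% and 2.86%, beside 19.1% and 17.4% over all genes), with a median log2 fold change of 0.45 beside -0.01 over all genes. The list was chosen with results of these data known and overlaps the general growth factor response, so its count is a description. Ccnd1 (cyclin D1), Phlda1 and Dusp4, an ERK phosphatase, rose 2.19-fold, 1.96-fold and 1.77-fold, with edgeR adjusted p = 4.49e-17, 3.56e-13 and 8.71e-13. Ccn1, an abundant matricellular protein gene of the list, rose 1.19-fold, from 946 ± 27.6 to 1127 ± 33.6 CPM (SD, n = 3 each; edgeR adjusted p = 5.32e-06). The gene that fell was the phosphatase gene Dusp1, named after its value was seen (log2 fold change -0.42, edgeR adjusted p = 8.42e-08). Under upper-quartile scaling, and without control replicate 1, 2 genes of the list were lower.

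**Figure D3:**
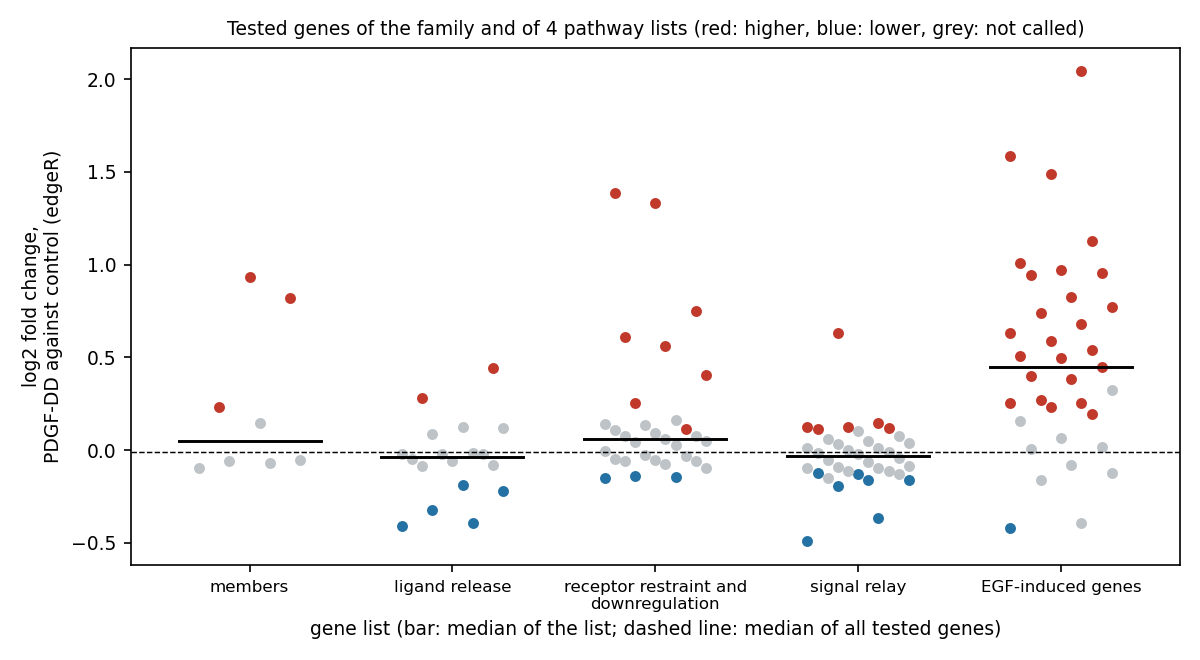
Log2 fold change of each tested gene of the family and of the 4 lists, PDGF-DD against control, 1 point per gene (bars are list medians, the dashed line is the median of all tested genes). In the list of EGF-induced genes 25 of 35 points (71.4%) are called higher, and in the signal relay 6 of 36 (16.7%), beside 19.1% of all tested genes.

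Markers of other cell types were measured beside these results. Macrophages and endothelial cells can also make HB-EGF. The summed levels of the macrophage, endothelial, cardiomyocyte and smooth muscle lists were lower in every PDGF-DD library than in every control library. The same held for the fibroblast list, at 25160 to 27270 TPM in control and 24300 to 24520 TPM with PDGF-DD. Of its 12 genes, 7 fell and 2 rose (58.3% and 16.7%, beside 17.4% and 19.1% over all genes). Hbegf, Ereg and Egfr were higher, and the part of these cell types in the results was not tested. The 8 macrophage markers summed to 358 to 380 TPM in control and 313 to 331 TPM with PDGF-DD, of which Lyz2 made up most. Of these 8 markers, 1 fell and 0 rose (12.5% and 0%, beside 17.4% and 19.1% over all genes). Endothelial markers (8 genes, Cdh5 highest) summed to 179 to 200 TPM and 175 to 177 TPM, so the ranges lay close together. Of these 8 genes, 1 was lower, 0 were higher and 7 were not called (12.5% lower, beside 17.4% over all genes). Cardiomyocyte markers (9 genes, 8 with counts in every library, Tnnt2 highest) summed to 312 to 336 TPM and 223 to 252 TPM. Tnnt2 made up most of this sum, at 314 and 228 TPM. Each of the other cardiomyocyte markers had a mean of at most 2.74 TPM in control. Of 7 smooth muscle and pericyte markers tested, 6 were lower and 0 higher (85.7% and 0%, beside 17.4% and 19.1% over all genes). The markers of this list (8 genes, Acta2 highest) summed to 8981 to 9103 TPM and 7096 to 7359 TPM. In control, Acta2 (6264 TPM) and Tagln (2643 TPM), the latter named after its value was seen, made up most of this sum. Each of the other markers of this list had a mean of at most 62.25 TPM there. The sum alone does not show how many smooth muscle cells were present. Mesothelial markers (6 genes, Lrrn4 highest) summed to 74.5 to 85.9 TPM and 74.9 to 76.6 TPM and overlapped. Epithelial cells carry much EGFR, and the 10 epithelial markers were slightly higher, from 16.8 to 19.9 TPM in control and 20.2 to 22.4 TPM with PDGF-DD, with Krt19 highest. Of these, 5 had counts in every library, Esrp1 and Grhl2 had 0 counts in all 6 libraries, and Epcam and Cdh1, named after their values were seen, had means of at most 0.05 TPM. Also named after their values were seen are Krt18, which rose from 2.39 ± 0.20 to 3.97 ± 1.18 TPM (SD, n = 3 each; log2 fold change 0.74, edgeR adjusted p = 0.0101), and Krt5, with 0 counts in each control library and 11, 4 and 1.78 estimated counts with PDGF-DD. Of the 4 epithelial markers tested, 1 was called higher and 0 lower (25% and 0%, beside 19.1% and 17.4% over all genes). Krt8, Krt14 and Cldn4 were named after their values were seen as well. Krt8, Krt14 and Krt19 did not pass (edgeR adjusted p = 0.0641, 0.759 and 0.527), and the mean of Krt14 was lower with PDGF-DD. Cldn4, too low to test, held 0.24, 0.37 and 0.19 TPM in control and 0.06, 0.18 and 0.12 TPM with PDGF-DD. Krt18, Krt5 and Egfr were each higher in all PDGF-DD libraries than in all controls. Within the PDGF-DD group, Krt18 was highest in replicate 2 (5.18 TPM), where Egfr was lowest (19.8 TPM). Krt5 was lowest in replicate 3, where Egfr was highest in TPM (22.1, against 21.9 in replicate 1). In CPM, Egfr was highest in replicate 1 (48.6, against 48.35 in replicate 3), where Krt5 was also highest. The part of epithelial cells in the Egfr result was not tested.

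The transcript length behind the deposited values was compared between libraries, because TPM and FPKM (the depth-scaled count per kilobase of transcript) divide by it. The length implied by a count and its FPKM was 2330 bases for Hbegf and 4090 bases for Ereg in each of the 6 libraries. For Nrg1, a gene with many isoforms, it varied from 4680 to 6390 bases, a coefficient of variation of 14.3%. Among 10892 tested genes with at least 1 FPKM in every library the median was 0.274%, and 0.0734% of these genes varied as much as Nrg1 or more. Nrg1 was long in control replicate 2 and PDGF-DD replicates 1 and 2 and short in the other libraries, so the variation did not follow the groups. Its TPM therefore ranged from 3.03 to 4.08 while its counts ranged only from 167 to 182. Tgfa was shorter in control replicate 3 and PDGF-DD replicate 2 (4150 and 4170 bases) than in the other libraries (4480 to 4510 bases), and Egfr varied by 1.32%. At the lowest levels, as for Areg, the 2 decimals of the deposited FPKM limit this measure.

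**Figure D4:**
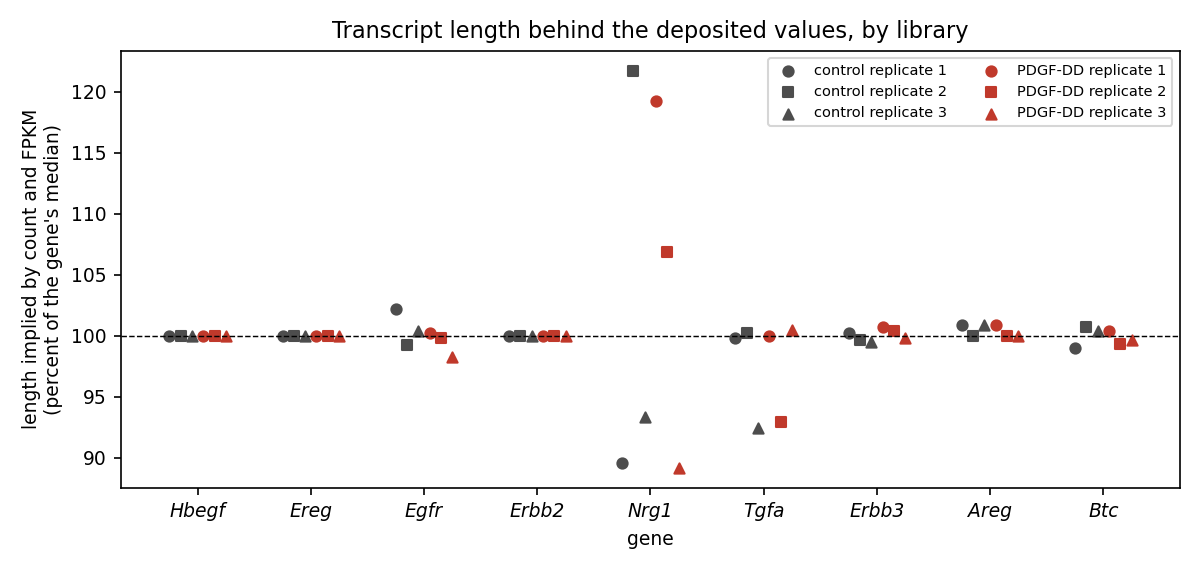
Length implied by the deposited count and FPKM, as a percentage of the gene's median over 6 libraries, 1 symbol per library (grey control, red PDGF-DD), for the 9 members with an FPKM above 0 in every library. Nrg1 spreads from 4680 to 6390 bases across libraries of both groups, and Hbegf and Ereg lie on the line.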

How the data were processed

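Poly(A) RNA of 6 fibroblast libraries was sequenced as DNA nanoballs. Per the submitters' processing notes, which give no roles, HISAT2 2.0.4, Bowtie2 2.2.5, RSEM 1.2.12, DESeq2 1.4.5 and build mm9 were used; the annotation was not given in the sources used here, nor was any strand setting. The deposited read counts are estimated counts with no scaling, per the file headers and the values (31.9% to 32.7% not whole). The deposited FPKM and TPM values were scaled by the authors to library depth and to a common sum, per the file headers.

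Counts were rounded, filtered with filterByExpr (13270 genes kept), scaled with TMM factors and tested with edgeR 4.0.16 (quasi-likelihood F test, robust, two-sided) in R 4.3.3. Benjamini-Hochberg adjustment ran over all tested genes, and calls have an adjusted p under 0.05. The SE is the log2 fold change divided by the square root of F. Alternatives used DESeq2 1.42.0, and limma 3.58.1 on log2(TPM + 0.1), log2(TPM + 1) and log2(FPKM + 0.1). The method was tested on simulated counts. Depth of at least 21221114 counts per library limits only genes with few counts, and intervals cover the spread between libraries only.

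The members, the 4 pathway lists and the marker lists were chosen with earlier results of these data known. All 207 list symbols matched the tables. Named genes are all members, Erbb4, Egf and Nrg2 to Nrg4, and, from each pathway list, the 4 called genes of smallest p plus the 2 most abundant genes. From each marker list they are the highest gene and those with 0 counts in all libraries. One gene that the rule names is not reported here.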

Additional observations from a re-analysis of the deposited data

How the results depend on the processing

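The 3 rises (Hbegf, Ereg, Egfr) and the absence of falls among the members held under all 16 alternatives. Log2 fold changes ranged from 0.88 to 1.01 for Hbegf, 0.74 to 0.90 for Ereg and 0.20 to 0.28 for Egfr, whose highest adjusted p was 0.0195. Some genes that were not called changed sign when a library was left out: Erbb3 (-0.20 to 0.0011), Tgfa (-0.10 to 0.013), Btc (-0.28 to 0.43), Adam9 (-0.0262 to 0.0085) and Akt1 (-0.0223 to 0.0101). Akt1 also did so with library totals only (0.0015) and in limma on FPKM (0.0018). In the signal relay, 3 genes rose with the replicate block and 2 in limma on log2(TPM + 0.1) or log2(TPM + 1), against 6. Leaving out 1 library gave 3 to 6 relay genes higher and 4 to 6 lower. It gave 1 to 3 restraint genes lower and 1 to 2 EGF-induced genes lower, the latter also 2 under upper-quartile scaling. The cause was not tested. The deviations of same-numbered libraries from their group means had correlations of -0.07, -0.09 and -0.03 over the tested genes. With 3 libraries per group these values cannot show whether the replicate number marks pairs, and no label says what it marks. With the replicate block 2269 genes were higher and 2076 lower, against 2535 and 2310, and the members' calls were the same. The order of levels was the same in FPKM, and Areg and Btc changed places without control replicate 2. Low counts limit Areg, Btc, Epgn and Erbb3. With the filter of 1 CPM, Btc was not tested.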

Other observations

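Summed over the 7 ligands, the level was 67.6 to 74.8 TPM in the control libraries and 112 to 136 TPM in the PDGF-DD libraries, means of 70.5 ± 3.77 and 122 ± 12.2 TPM (SD, n = 3 each). Hbegf and Ereg made up 89.3% to 89.5% of that sum in control and 94.1% to 94.7% with PDGF-DD. The other 5 ligands together held 7.10 to 7.94 TPM in control and 6.35 to 7.52 TPM with PDGF-DD, and these values overlap. The ratio of Hbegf to Ereg in TPM was 1.03 to 1.22 in control and 1.16 to 1.24 with PDGF-DD. Summed ligand TPM per TPM of Egfr was 3.48 to 4.21 in control and 5.45 to 6.12 with PDGF-DD. That sum takes in all 7 ligands, also Nrg1, whose product binds ERBB3 and ERBB4. The 3 receptors summed to 32.7 to 37.2 TPM and 36.6 to 38.6 TPM. These sums are descriptions of transcript levels and carry no test.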
